A study of Mus musculus with 6 samples.

Results

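The collagens are the main structural proteins of the extracellular matrix, and their RNA was followed here in medullary thymic epithelial cells (mTECs) with and without Mbd1. Members were all genes whose symbol on the Agilent mouse array is Col, a number, the letter a and a second number, and 40 of the 21538 genes with a symbol met this rule. They were covered by 81 of the 41174 probes, and each gene was read through its brightest probe that was detected on at least 3 of the 6 arrays. By textbook role the 40 genes were placed in 6 classes. These were 8 fibrillar collagens, 7 cartilage collagens, 8 basement membrane collagens, 5 anchoring or transmembrane collagens, 6 fibril-associated collagens, and 6 genes of type VI and other types.

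The cells came from the thymus of mice 30 days old, either Mbd1 wild type or Mbd1 knockout. The sort kept EpCAM-positive, class II-positive cells and removed dead cells (DAPI) and cells with CD11c, CD45 or Ly51 on their surface. Amplified RNA was labelled with Cy3 and hybridised 1 sample to an array. Of 4 biological replicates made per genotype, 1 of each was removed by the authors for quality, which left 3 against 3. Strain, sex, the deleted stretch of Mbd1 and the number of animals behind a replicate were not stated in the sources used here. The p-values therefore measure the spread between these samples only. The question the groups pose is which genes differ in mTECs that lack Mbd1.

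Fibrillar collagens assemble into the fibres that give tissues tensile strength, and fibril-associated collagens decorate those fibres. Type IV collagen forms the sheet-like network of basement membranes on which epithelia rest. Types II, IX, X and XI are the collagens of cartilage, where type II forms the fibril, type XI sets its core, type IX sits on its surface and type X marks hypertrophic chondrocytes. mTECs express many genes of other organs at low frequency for display to developing T cells, and type II collagen is a known antigen of joint autoimmunity. The Mbd1 protein recognises CpG sites that carry DNA methylation, and for that reason the CpG content of collagen promoters is shown beside the expression values.

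Values are log2 levels as deposited by the authors in 6 columns, 3 named for each genotype and numbered. The column names and the titles of the scanner files did not match. In rank, 5 of the 6 columns equalled the spot intensities of 1 scanner file each, and none of the 5 files carried the title of its column: 4 were titled with the other genotype and 1 with another number. Knockout 1 equalled no scanner file. By these matches wild type 1, knockout 2 and knockout 3 lay on slide 1, and wild type 2 and 3 on slide 2. Slide and genotype therefore cannot be fully told apart in the comparison. Mbd1 itself read 8.83, 8.60 and 9.0 in the wild type columns against 5.64, 5.61 and 5.60 in the knockout columns. Its difference was -3.19 (SE 0.19, limma adjusted p = 3.97e-05). Background lay between 5.50 and 5.67 by column, and Mbd1 was not above it in 2 of the 3 knockout columns, so the difference is the measured one and the drop may be larger. Under the scanner titles the same probe differed by 1.59 with an SE of 1.57. The column names are therefore used throughout, and values under the titles are given where they bear on a result. Most matched columns change genotype under the titles, so those values do not repeat the same comparison. The 14 measured mTEC markers, Epcam (as Tacstd1), Krt5, Krt14, Aire and Cd74 among them, were above background in all 6 columns. Between 72.6% and 79.4% of probes were well above background per array, and the number of arrays limits the precision.

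Through probes chosen for detection and brightness, all 40 collagens of the symbol rule read above background. None of them differed between the genotypes after adjustment. All 40 brightest collagen probes were above the background level in all 6 columns, as were 92.7% of the 18461 genes tested. On the scanner arrays 35 of them were well above background on all 6 arrays and 5 on 5 arrays. Of the 81 collagen probes, 69 passed the detection filter and 7 were never well above background. Limma with Benjamini-Hochberg adjustment over all genes called 0 of 40 collagens at 0.05, against 17 of all genes (0.0921%), of which 15 were higher in knockout (0.0813%) and 2 lower (0.0108%). The smallest adjusted p of a collagen was 0.849. At an unadjusted p under 0.05, 2 of 40 collagens passed, Col9a1 with the knockout higher and Col11a1 with the knockout lower, against 4.11% of all genes and 2.05% in each direction. These 2 were also the collagens whose wild type and knockout columns did not overlap, 5.0% of the family against 8.24% of all genes (3.94% with the knockout above and 4.3% with it below). Both shares lie near those of all genes. Under the scanner titles 1 of 40 collagens passed an unadjusted p of 0.05, Col28a1, against 4.34% of all genes. An exact permutation test of 3 against 3 has 0.1 as its smallest p. In whole sorted samples, fewer cells of a type and less RNA per cell cannot be told apart.

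**Figure D1:**
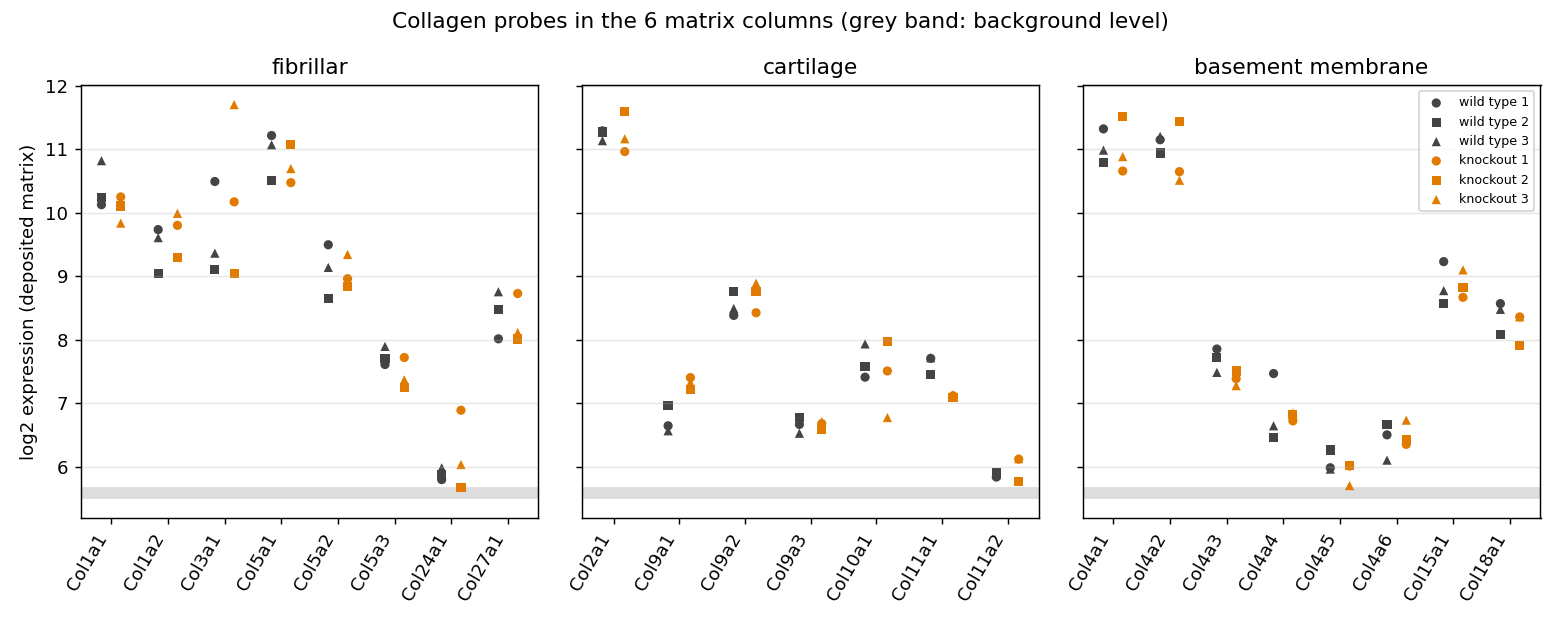
Log2 level of each fibrillar, cartilage and basement membrane collagen in the 6 matrix columns, wild type in grey and knockout in orange, with the background level of 5.50 to 5.67 as a band. Heights of different probes are not comparable as amounts; within a gene, the grey and orange symbols separate only for Col9a1 and Col11a1.

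Differences were small over the family. The median difference, knockout minus wild type, was -0.05 over the 40 collagens and -0.01 over all genes, with 17 collagens positive and 23 negative. A difference over 0.5 in size was seen for 3 collagens, Col3a1, Col9a1 and Col11a1, or 7.5% against 4.76% of all genes. The 95% interval lay within 1 log2 unit of 0 (a 2-fold difference) for 37 of 40 collagens, 92.5% against 92.7% of all genes, and the exceptions were Col3a1, Col16a1 and Col9a1. It lay within 0.5 log2 units for 3 collagens, Col2a1, Col9a3 and Col23a1. Replicate spread was close to that of other genes: the median pooled SD was 0.258 for the collagens and 0.265 for all genes.

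**Figure D2:**
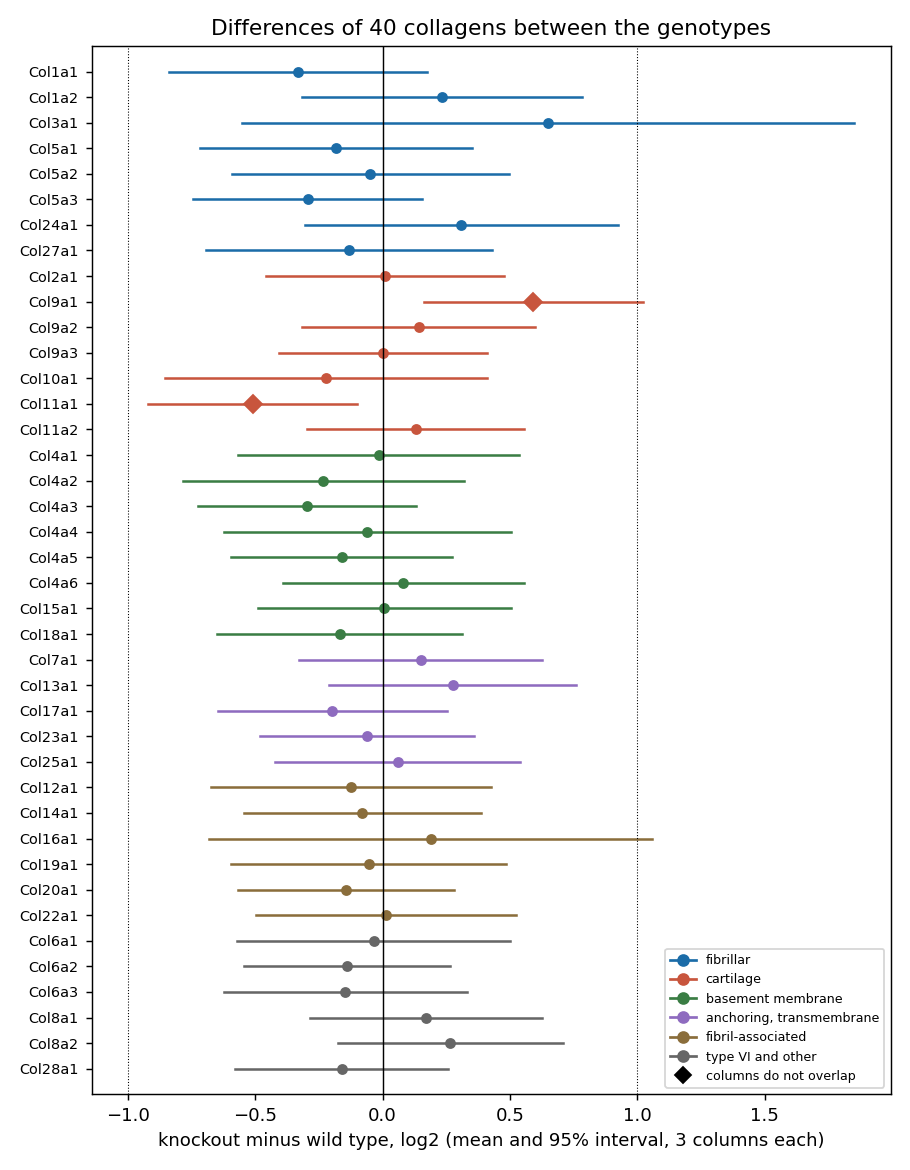
Difference between knockout and wild type, log2, for the 40 collagens, with the mean as a point and the 95% interval as a line, coloured by class. Diamonds mark Col9a1 (0.59) and Col11a1 (-0.51), whose columns do not overlap, and dotted lines mark a 2-fold difference either way.

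The 3 main classes overlapped between the genotypes. Averaged over the 8 fibrillar genes, the columns read 9.06, 8.70 and 9.08 in wild type against 9.12, 8.66 and 9.13 in knockout, and the median difference was -0.09. Averaged over the 8 basement membrane genes they read 8.51, 8.19 and 8.20 against 8.10, 8.30 and 8.18, with a median difference of -0.11. Averaged over the 7 cartilage genes they read 7.70, 7.81 and 7.75 against 7.74, 7.85 and 7.73, with a median difference of 0.01. In no class did the columns of the genotypes separate. Differences were positive for 3 of 8 fibrillar, 2 of 8 basement membrane and 5 of 7 cartilage collagens. Leaving out 1 column at a time moved the medians across 0 in all 3 classes, from -0.19 to 0.06 for fibrillar, -0.20 to 0.02 for basement membrane and -0.04 to 0.07 for cartilage collagens. The median difference was 0.06 for the 5 anchoring or transmembrane collagens, -0.07 for the 6 fibril-associated collagens and -0.09 for type VI and other collagens.

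Among cartilage collagens, the columns of Col9a1 and Col11a1 did not overlap between the genotypes, as was the case for 8.24% of all genes. Col9a1 (chromosome 1), which encodes the alpha 1 chain of the type IX collagen found on cartilage fibril surfaces, read 6.64, 6.96 and 6.56 in wild type against 7.40, 7.22 and 7.32 in knockout. The genotypes did not overlap, with knockout on top. Wild type averaged 6.72 ± 0.21 and knockout 7.31 ± 0.09 (SD, n = 3), a difference of 0.59 with an SE of 0.20 and a 95% interval of 0.16 to 1.02. Limma gave it an unadjusted p of 0.0113 and an adjusted p of 0.849. The gene had 1 probe on the array, so no other probe could be set beside it. Over the 12 other settings run on the matrix columns the difference stayed between 0.51 and 0.71. With 1 probe detected on all 6 arrays, the filter, probe mean, moderation and replicate block could not change this difference. The other settings used the same columns with 1 left out or a slide term. Without wild type 3 its unadjusted limma p was 0.059. Under the scanner titles the difference was -0.03.

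Col11a1 (chromosome 3), a chain of type XI collagen, which sits in the core of cartilage fibrils and also occurs elsewhere, went the other way. It read 7.70, 7.45 and 7.71 in wild type against 7.12, 7.09 and 7.13 in knockout. All knockout columns lay below all wild type columns. The difference was -0.51 with an SE of 0.19 and a 95% interval of -0.92 to -0.10, and limma's adjusted p was 0.994. A second, dimmer Col11a1 probe, detected on 4 arrays, differed by -0.06, and another was never well above background. Averaging the kept probes gave -0.29. Under the scanner titles, where most matched columns change genotype, the difference was 0.50.

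The other 5 cartilage collagens did not separate. Col2a1 (chromosome 15), the fibril-forming chain of cartilage and the best known joint autoantigen of the family, read 11.29, 11.27 and 11.13 in wild type against 10.96, 11.59 and 11.16 in knockout. Its knockout columns spanned the wild type range on both sides. The difference was 0.01, with a 95% interval of -0.46 to 0.48, and a second Col2a1 probe differed by 0.15. Col9a2, the alpha 2 chain of type IX collagen, read 8.38, 8.76 and 8.49 against 8.42, 8.75 and 8.89, a difference of 0.14 with a 95% interval of -0.31 to 0.60. Col9a3, the remaining type IX chain, differed by 0.00 with a 95% interval of -0.41 to 0.41. The 3 chains form 1 trimer, yet the 95% interval of Col9a1 alone excluded 0 among them; the difference between the chains was not tested. Col10a1, the hypertrophic cartilage collagen, differed by -0.22, and Col11a2, a further chain of type XI collagen, by 0.13.

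The promoters of Col9a1 and Col11a1 are printed because these 2 genes separated by column, and that of Col5a1 as a CpG-rich contrast within the family. Sequences are RefSeq's (GRCm38.p6), 5′ to 3′ on the gene's strand, covering the 250 bases before the annotated start, with each CG in capitals. Col9a1 has 2 annotated starts in the table, at chr1:24177360-24177609 and chr1:24194953-24195202 (plus strand), and neither stretch holds a CG. Col11a1 lies at chr3:114030290-114030539 (plus strand) with 7 CG, and Col5a1 at chr2:27886175-27886424 (plus strand) with 28 CG.
Col9a1, upstream start: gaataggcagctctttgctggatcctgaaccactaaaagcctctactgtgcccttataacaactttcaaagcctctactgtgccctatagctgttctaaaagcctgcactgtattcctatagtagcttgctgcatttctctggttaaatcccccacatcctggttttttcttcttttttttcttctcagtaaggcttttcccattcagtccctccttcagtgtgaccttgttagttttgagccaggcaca
Col9a1, downstream start: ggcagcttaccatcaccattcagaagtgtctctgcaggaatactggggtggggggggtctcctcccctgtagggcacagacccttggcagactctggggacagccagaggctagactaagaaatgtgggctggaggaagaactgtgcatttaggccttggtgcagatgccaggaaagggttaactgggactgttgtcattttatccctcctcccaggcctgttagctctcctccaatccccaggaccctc
Col11a1: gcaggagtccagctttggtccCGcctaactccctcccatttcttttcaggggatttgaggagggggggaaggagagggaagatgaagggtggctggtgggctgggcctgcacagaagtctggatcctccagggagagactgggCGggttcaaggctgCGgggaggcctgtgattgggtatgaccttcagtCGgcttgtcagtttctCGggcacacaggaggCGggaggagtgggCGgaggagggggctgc
Col5a1: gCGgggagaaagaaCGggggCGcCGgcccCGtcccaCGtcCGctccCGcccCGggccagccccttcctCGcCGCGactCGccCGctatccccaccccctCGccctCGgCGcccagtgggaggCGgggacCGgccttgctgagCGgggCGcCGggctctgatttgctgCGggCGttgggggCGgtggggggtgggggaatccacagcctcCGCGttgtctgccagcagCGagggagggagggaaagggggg

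CpG content over the family was spread widely. Windows of 300 bases, from 250 before the start to 50 after it, were found for 32 of 40 collagens, in 35 windows. They held a median of 12 CG, against 7 over all 32841 windows of the table. At most 1 CG was found in 5 collagen windows (14.3%, against 14.1% of all windows), those of Col9a1 at both starts, Col3a1, Col20a1 and Col28a1. The richest windows were those of Col4a1 (37 CG), Col5a1 (34), Col4a2 (33) and Col8a2 (32). By class the median was 15.5 CG for fibrillar, 12.5 for basement membrane and 7.5 for cartilage collagens. CCAAT, counted on either strand, was present in 34.3% of collagen windows and 37.4% of all windows, and TATAAA in 14.3% and 13.6%. These are letter matches and not measured binding or methylation, neither of which was part of the data.

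**Figure D3:**
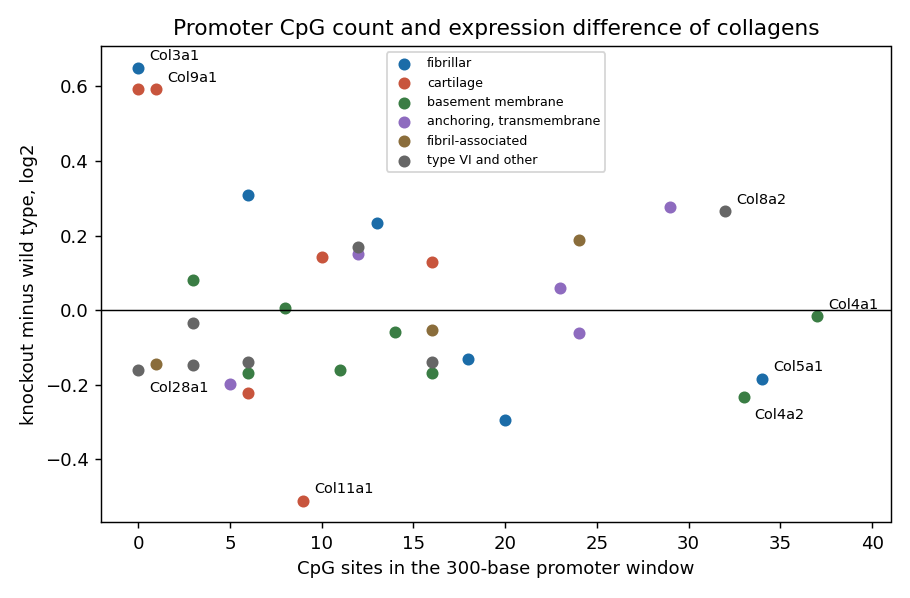
Number of CG in each 300-base promoter window (horizontal) against the difference between knockout and wild type, log2 (vertical), for 35 windows of 32 collagens coloured by class. Col3a1 and Col9a1, with 0 or 1 CG, lie at the top left, while Col28a1, with 0 CG, lies below 0 at -0.16.

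Whether differences follow CpG content was not tested over the 35 windows, and only the genes at either end of the count are named here. Among the genes with windows of at most 1 CG, Col3a1 differed by 0.65 and Col9a1 by 0.59, while Col20a1 differed by -0.14 and Col28a1 by -0.16. Among the 4 richest, Col8a2 differed by 0.27, Col4a1 by -0.02, Col5a1 by -0.18 and Col4a2 by -0.23. The plot of CpG count against difference shows both signs at either end.

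The fibrillar collagens held the widest spread between columns. Col3a1 (chromosome 1), the type III collagen of elastic soft tissue, read 10.49, 9.11 and 9.36 in wild type against 10.17, 9.04 and 11.70 in knockout. The columns interleaved, with knockout 3 highest and knockout 2 lowest. Its difference of 0.65 had an SE of 0.55 and a 95% interval of -0.55 to 1.85, and without knockout 3 it was -0.05. The range over the 6 columns was 2.66, wider than all but 0.282% of genes, and a second Col3a1 probe differed by 0.17.

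Col1a1 and Col1a2 encode the paired chains of type I collagen, and their brightest probes did not move together by column. Col1a1 (chromosome 11) read 10.13, 10.24 and 10.82 in wild type against 10.25, 10.11 and 9.84 in knockout, a difference of -0.33 with a 95% interval of -0.84 to 0.18. Its other 2 probes differed by 0.03 and 0.06, and both were above their own means in knockout 3, the lowest column of the brightest probe. Col1a2 (chromosome 6) read 9.73, 9.05 and 9.61 against 9.80, 9.29 and 9.99, a difference of 0.23 with a 95% interval of -0.32 to 0.78. For both genes the genotypes overlapped.

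Type V collagen, which starts the assembly of type I fibrils, also overlapped between the genotypes. Col5a1 (chromosome 2) read 11.22, 10.50 and 11.07 in wild type against 10.47, 11.07 and 10.70 in knockout, a difference of -0.18 with a 95% interval of -0.72 to 0.35. Col5a2 (chromosome 1) read 9.49, 8.65 and 9.14 against 8.96, 8.83 and 9.34, a difference of -0.05 with a 95% interval of -0.59 to 0.49. Col5a3, the least common chain of type V, differed by -0.29 with a 95% interval of -0.74 to 0.15.

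The late-described fibrillar collagens had weaker or discordant readings. Col27a1 (chromosome 4), which is strongest in developing cartilage, read 8.01, 8.48 and 8.75 in wild type against 8.73, 8.01 and 8.11 in knockout. Its difference was -0.13, with a 95% interval of -0.70 to 0.43. Its 3 kept probes differed by -0.13, -0.07 and -0.74, the widest disagreement in the family. The dimmest of them, at -0.74, had an unadjusted p of 0.044 in limma run over probes. Its genotypes overlapped, and its knockout 3 value of 5.54 was below background. Col24a1 read 5.79, 5.88 and 5.98 against 6.89, 5.67 and 6.03, close to background. Knockout 1 was its highest column and knockout 2 its lowest, and the difference was 0.31.

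Basement membrane collagens form the sheet beneath epithelia, and none of the 8 separated by genotype. Col4a1 and Col4a2 (chromosome 8) encode the chains of the common type IV network. Col4a1 read 11.32, 10.79 and 10.99 in wild type against 10.66, 11.51 and 10.88 in knockout, a difference of -0.02 with a 95% interval of -0.57 to 0.54. Col4a2 read 11.15, 10.94 and 11.20 against 10.65, 11.43 and 10.51, a difference of -0.23 with a 95% interval of -0.78 to 0.32. In both genes knockout 2 was the highest column, and knockout 1 and 3 were below the lowest wild type column for Col4a2. Second probes differed by 0.00 for Col4a1 and by 0.08 for Col4a2. Without knockout 2 the Col4a2 difference was -0.52 and passed the unadjusted threshold, but not the adjusted one.

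Col4a1 and Col4a2 are transcribed in opposite directions from overlapping starts. The RefSeq starts used for their promoter windows, 1 per gene, lie 21 bases apart, at chr8:11312805-11312826 (GRCm38.p6, plus strand shown). Col4a2 starts at the first base and Col4a1 at the last, and the stretch holds 4 CG in capitals. The annotated span of the Col4a1 gene reaches further, to base 11312889.
Col4a2 and Col4a1 starts: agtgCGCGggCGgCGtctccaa
Their 300-base windows share 78 bases, so their 37 and 33 CG are partly the same sites. Col4a5 and Col4a6 (chromosome X) form a second head-to-head pair, and the starts used for their windows lie 1343 bases apart.

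The remaining type IV chains build the specialised networks of kidney, lung and smooth muscle. Col4a3 differed by -0.30 with a 95% interval of -0.72 to 0.13, Col4a4 by -0.06, Col4a5 by -0.16 and Col4a6 by 0.08. Col4a5 lay near background, between 5.70 and 6.26. Col15a1 (chromosome 4), a basement membrane zone collagen of vessels and muscle, read 9.23, 8.57 and 8.77 in wild type against 8.67, 8.83 and 9.10 in knockout, a difference of 0.01 with a 95% interval of -0.49 to 0.50. Col18a1 (chromosome 10), the source of endostatin, read 8.57, 8.08 and 8.48 against 8.36, 7.90 and 8.36, a difference of -0.17 with a 95% interval of -0.65 to 0.31. In both the genotypes overlapped.

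The anchoring and transmembrane collagens include genes of stratified epithelium. Col17a1, a hemidesmosome component of basal keratinocytes, read 9.46, 9.10 and 9.07 in wild type against 8.97, 8.85 and 9.22 in knockout, a difference of -0.20 with a 95% interval of -0.65 to 0.25. Col7a1, which forms anchoring fibrils beneath the epidermis, read 8.65, 8.91 and 8.93 against 9.14, 8.60 and 9.19, a difference of 0.15 with a 95% interval of -0.33 to 0.63. The transmembrane collagens Col13a1, Col23a1 and Col25a1 differed by 0.28, -0.06 and 0.06. By their brightest probes all 5 overlapped between genotypes. A second, dimmer Col13a1 probe near background differed by 0.17. Its knockout columns lay above its wild type columns, as was the case for 3.94% of all genes.

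Among fibril-associated collagens, Col16a1 varied most. It read 10.72, 8.88 and 10.03 in wild type against 10.12, 9.56 and 10.50 in knockout, a difference of 0.19 with a 95% interval of -0.68 to 1.06. The range was 1.84, exceeded by 1.19% of genes, and it lay within the wild type group. Col12a1 and Col14a1, which coat type I fibrils in tendon and skin, differed by -0.12 and -0.08. Col19a1, Col20a1 and Col22a1 differed by -0.05, -0.14 and 0.01, and a second Col19a1 probe differed by -0.59.

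Type VI collagen forms beaded filaments around cells. Its chains Col6a1, Col6a2 and Col6a3 differed by -0.04, -0.14 and -0.15, with 95% intervals of -0.57 to 0.50, -0.54 to 0.27 and -0.62 to 0.33. Col8a1 and Col8a2, the short-chain collagens of endothelial matrix, differed by 0.17 and 0.27, and Col28a1 by -0.16. Each overlapped between genotypes.

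Probes of the same gene often gave different signs. Of the 25 collagens with more than 1 kept probe, 14 had kept probes on both sides of 0, and the median spread between the probes of a gene was 0.23. Among the 81 collagen probes, 0 had an FDR under 0.05 in the authors' deposited table, against 26 of all probes. An unadjusted p under 0.05 in the authors' deposited table was held by 2 collagen probes (2.47%), against 3.83% of all probes.

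The columns were not alike within a genotype. Wild type 1 was the highest column for 10 of 40 collagens and wild type 2 for 2, while knockout 2 was the lowest for 14, and over all genes these shares were 19.6%, 16.1% and 21.7%. Wild type 1 and knockout 3 were together the 2 highest columns for Col3a1, Col5a2, Col16a1, Col15a1, Col4a4, Col17a1 and Col19a1, 17.5% of the family against 12.9% of all genes. These columns and genes were picked after their values were seen. The same held for 4 of 11 fibroblast markers (Lum, Pdgfra, Pdgfrb and Dcn, 36.4%). It held for 3 of 18 folding, modification and secretion genes (16.7%), the collagen chaperone Serpinh1 among them. Of 14 mTEC markers it held for 1 (7.14%), the keratin Krt5. Collagen receptors gave 2 of 10, basement membrane partners 2 of 14, and cartilage matrix genes and regulators 2 of 13. Cortical markers gave 1 of 6 and trimming and cross-linking genes 1 of 12. The thymocyte, B cell, dendritic cell and endothelial lists held none. Pdgfra, a receptor of mesenchymal cells, read 7.92, 7.31 and 7.50 in wild type against 7.42, 7.09 and 8.05 in knockout. Other fibroblast markers went the other way in knockout 3, where Postn (7.98), Mfap5 (5.82) and Fbn1 (8.92) had their lowest values and Pi16 was below its mean. The part of these markers in the collagen values was not tested.

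**Figure D4:**
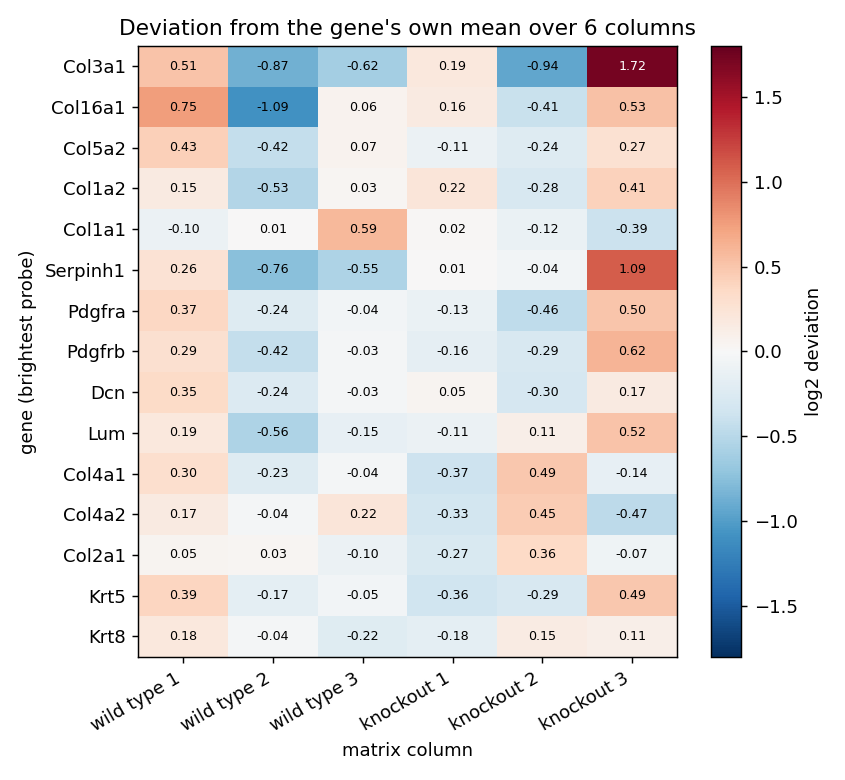
Deviation of each gene from its own mean over the 6 columns, log2, for collagens, Serpinh1, fibroblast markers and mTEC keratins, chosen after the values were seen. Col3a1 reaches 1.72 in knockout 3, where Serpinh1, Pdgfra and Pdgfrb are also above their means. The brightest Col1a1 probe reads -0.39 there. The other 2 kept Col1a1 probes, not drawn, are above their means in that column (10.21 against 10.06, and 9.45 against 9.19). Of all 11 fibroblast markers, 4 (Postn, Fbn1, Mfap5 and Pi16, not drawn) are below their means in that column.

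Markers of other cells were read in the sorted samples. All 11 measured fibroblast markers were above background in all 6 columns; 6 of 11 were positive, the median difference was 0.04, and the mean log2 level of the list ran from 8.03 to 8.26 in the wild type columns and from 8.15 to 8.25 in the knockout columns. Differences were positive for 10 of 11 markers of thymocytes and T cells, with a median of 0.47 and a mean level of 7.92 to 8.21 in wild type against 8.49 to 8.74 in knockout, so these groups did not overlap. Cd8b1, a T cell coreceptor chain, differed by 0.97 with a limma adjusted p of 0.241. Cortical epithelial markers were positive for 5 of 6, with a mean level of 9.70 to 10.01 against 10.06 to 10.20. Among them Ccl25 and Prss16 were above the wild type columns in all knockout columns, and Ly75 was below them in all. Dendritic cell and macrophage markers were positive for 7 of 8 with a median of 0.26 and a mean level of 8.86 to 9.17 against 9.20 to 9.49, and endothelial and pericyte markers for 5 of 8 with a median of 0.19 and a mean level of 7.77 to 7.85 against 7.61 to 8.23. The 14 mTEC markers were positive for 6, with a median of -0.04, and B cell markers for 4 of 6, with a median of 0.10. By gene, all knockout columns lay above the wild type columns for 6 of 11 thymocyte and T cell and 4 of 8 dendritic cell and macrophage markers. The same held for 2 of 6 cortical and 2 of 8 endothelial and pericyte markers. No fibroblast or B cell marker separated, and Ly75 and 1 mTEC marker lay below. Over all genes 48.4% were positive, and 3.94% separated with the knockout above and 4.3% with it below. None of the marker lists had a member past the adjusted threshold, and their part in the collagen values was not tested.

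The enzymes and chaperones that make collagen gave no call as a list. Of 18 measured folding, modification and secretion genes 10 were positive, the median was 0.02 and 0 passed the adjusted test, against 0.0921% of all genes. Serpinh1, which encodes the collagen-specific chaperone HSP47, read 9.58, 8.56 and 8.77 in wild type against 9.33, 9.28 and 10.41 in knockout. Its difference was 0.70 with a 95% interval of -0.03 to 1.44, and the genotypes overlapped. Tmem38b, an ion channel needed for collagen folding in bone, differed by 0.64, with knockout values of 6.48, 6.80 and 7.28 against 5.53, 6.44 and 6.69. The prolyl hydroxylase Leprel2 differed by 0.31 and the collagen galactosyltransferase Glt25d2 by -0.22.

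Genes that trim and cross-link collagen gave no call either. Of 12 measured, 5 were positive and the median was -0.03. Loxl2, a lysyl oxidase that cross-links type IV collagen, read 10.14, 9.13 and 9.07 against 9.05, 8.61 and 9.58, a difference of -0.37 with a 95% interval of -1.07 to 0.33. Pcolce, Loxl4 and Adamts3 differed by -0.19, 0.18 and -0.22.

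Partners of type IV collagen in the basement membrane were negative for 10 of 14 genes. These laminin, nidogen and agrin genes had a median of -0.10, and 0 passed the adjusted test. Lama1, the laminin chain of early embryonic basement membranes, read 8.30, 8.48 and 9.12 in wild type against 9.55, 9.29 and 8.99 in knockout. The groups overlapped through wild type 3, and the difference was 0.64 with a 95% interval of 0.09 to 1.19. Nid2, Lamb1-1 and Lama2 differed by 0.34, -0.34 and -0.25.

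Collagen receptors were read at 10 genes, 4 of them positive, with a median of -0.01. Itga10, the integrin chain by which chondrocytes bind type II collagen, read 6.29, 6.83 and 5.84 in wild type against 5.79, 5.70 and 5.64 in knockout. All knockout columns lay below the wild type columns and near background, and the difference was -0.61 with a 95% interval of -1.15 to -0.07. Lair1, an inhibitory collagen receptor of leukocytes, differed by 0.40, Mrc2 by 0.22 and Itga2 by 0.12.

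Cartilage matrix genes and regulators were positive for 5 of 13, with a median of -0.07. Sox6, a partner of Sox9 in switching on cartilage genes, read 7.45, 8.16 and 8.17 in wild type against 7.51, 7.51 and 6.91 in knockout. The groups overlapped through wild type 1, and the difference was -0.61 with a 95% interval of -1.18 to -0.05. Sox9, the master regulator of Col2a1 in cartilage, differed by 0.12. Hapln1, Comp and Cilp, which encode proteins of the cartilage matrix, differed by -0.48, -0.33 and -0.22. Over these 5 lists 3 of 67 measured genes, Lama1, Itga10 and Sox6, passed an unadjusted p of 0.05, or 4.48% against 4.11% of all genes, and none passed limma's adjusted threshold.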

How the data were processed

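Expression was measured on 1-colour arrays of sorted mTECs, 3 columns per genotype. The authors' deposited matrix holds log2 values per probe, and their background correction and normalization were not stated in the sources used here. The near-equal quartiles of the columns resemble quantile normalization. In rank 5 columns equalled the raw median spot intensity of a scanner file, so differences of dim probes may be understated. The matrix also holds the authors' deposited log2 ratio, fold, p-value and log-odds score; counts of p-values and FDR were copied, and the fold and score were not used here. Scanner files hold linear spot intensity, made with Agilent Feature Extraction, 10.7.3.1 per the file headers; the submitters' processing notes name 10.6. They gave the detection flags and the alternative under the titles.

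Genes were named by the deposited Agilent symbol. A probe was kept where well above background on at least 3 of 6 arrays, and the brightest kept probe stood for a gene. The background level of a column was the 95th percentile of 5304 probes never well above background. The 6 columns were fitted over 18461 genes by genotype in limma (3.58.1, R 4.3.3; lmFit, then eBayes), with Benjamini-Hochberg adjustment (threshold 0.05), and the fit was tested on simulated data. A set-wise score was given no test. Values per column are given for fibrillar, cartilage and basement membrane collagens with a mean above 8 or an unadjusted p under 0.05, up to 4 members of smallest p are named in the other lists of collagen-related genes, and every other collagen is given by its difference; Pdgfra, Sox9, Cd8b1 and further collagens with values per column were added. The collagens and gene lists were chosen with earlier results of these data known. Promoter windows and names came from RefSeq (GRCm38.p6). Col21a1, Col6a5, Hspg2 and Ccl21a were not analysed here. The planned normexp alternative on mean spot signals used median spot signals, the column the scanner files hold. Other alternatives were the filter, the mean over probes, the moderation, the replicate number or slide as a block, each column left out, and column median subtraction.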

Additional observations from a re-analysis of the deposited data

How the results depend on the processing

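Adjusted calls among the 40 collagens were 0 in every setting run. The count at an unadjusted p under 0.05, 2 in the report, was 1 under the scanner titles, 0 under the titles with normexp and quantile normalization, 1 with the mean over probes and 1 with slide as a block, and leaving out 1 column gave 0 (without wild type 3) to 4 (without knockout 2: Col11a1, Col9a1, Col3a1 at 1.28 and Col4a2 at -0.52). The replicate number as a block gave 1 collagen (Col9a1) and 24 genes in all, against 17. Same-numbered columns deviated with correlations of -0.31, -0.18 and -0.35. Whether same-numbered samples were paired was not stated in the sources used here, and no pairing was used. Calls over all genes were 0 under the titles, 0 with slide as a block, and 9 to 32 with 1 column left out (lowest without wild type 2, highest without knockout 3). In the slide block, knockout 1 was left out because its slide is unknown, and slide 2 held only wild type 2 and 3. The slide block rests on slide 1 alone, which held both genotypes but 1 wild type column against 2 knockout columns, the lone column being assumed to vary like the others. There Col9a1 differed by 0.63 and Col11a1 by -0.60 and neither passed the unadjusted threshold; the collagen that did was Col13a1. Under the titles the median was 0.14 over the collagens, beside 0.12 over all genes. By class it was 0.18 over cartilage, -0.05 over fibrillar and -0.19 over basement membrane collagens. Leaving out 1 column gave a median over all collagens of -0.11 to -0.031. Of 14 collagens with values per column by rule, 5 kept their sign in the 12 matrix settings (Col11a1, Col18a1, Col5a1, Col9a1 and Col9a2). The moderation and the replicate block could not change a difference, only its error. Over all settings 37 of 196 values had another sign, 0 of them past the adjusted threshold, and these were not counted as reversals. Values under the titles come from a comparison in which most matched columns changed genotype. The causes of these shifts were not tested. Subtracting column medians left 2 collagens without overlap.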

Other observations

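A few probes of collagen genes fall outside the symbol rule. The probe of Col6a6, carried under the older name E330026B02Rik, read 5.21, 5.57 and 5.48 in wild type against 5.87, 5.65 and 7.59 in knockout. All its knockout columns lay above all wild type columns, as was the case for 3.94% of all genes. Only the 3 knockout columns were above background, so no fold was measured, and the highest value was that of knockout 3. A probe that the deposited annotation assigns to Col12a1 without an Agilent symbol read 7.86, 7.36 and 7.24 in wild type against 7.02, 7.09 and 6.60 in knockout. Its columns did not overlap, as was the case for 8.24% of all genes, and its difference was -0.58 with an SE of 0.23. The Col12a1 probe used in the report differed by -0.12 and the other kept Col12a1 probe by 0.09. A probe assigned to Col1a2 in the same way differed by 0.21. Col26a1, carried as Emid2, differed by 0.14, and the 2 probes of Col6a4, carried as 1110001D15Rik, by 0.03 and -0.09.

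Several collagens are neighbours on their chromosome in RefSeq. Col9a1 and Col19a1 are adjacent on chromosome 1, and their differences were 0.59 and -0.05. Col3a1 and Col5a2 are adjacent on the same chromosome, with 0.65 and -0.05, and Col4a3 and Col4a4 with -0.30 and -0.06.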
